A study of Mus musculus with 15 samples.

Results

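Severely swollen knee joints of mice with collagen-induced arthritis were compared with naive knee joints, across every probe set of the array. The comparison uses 6 of the study's 15 arrays, 3 titled as severe joint inflammation and 3 titled as naive, each made from total RNA of 1 synovium sample. They were picked by title alone, so no measured value entered the choice. Of 45101 probe sets, 64 are array controls, and the other 45037 were all tested. The 9 remaining arrays come from immunized mice whose joints had no, mild or moderate swelling. On day 0 the arthritic mice received 100 µg of type II collagen together with FCA, and another 100 µg by the i. p. route on day 21. The label of the naive samples repeats this immunization text, although their title says naive and their source says healthy. It cannot be told from the labels whether they were injected, and if they were, each comparison with naive has another meaning. Strain, sex, age and day of sampling are not given in the sources used here. Whether the 3 arrays of a group came from different mice is not stated, and a p-value here covers array-to-array spread alone, possibly technical in origin.

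The synovium is the soft tissue that lines a joint capsule. Its lining layer is made of fibroblasts, which secrete lubricin and hyaluronan into the joint fluid, and of resident macrophages. In collagen-induced arthritis, T cells and antibodies directed at type II collagen, the chief collagen of cartilage, set off an inflammation in which neutrophils and monocytes enter the joint. Fibroblasts of the lining multiply and, with macrophages, form a mass called pannus that digests cartilage and bone. Knee synovium lies against fat, tendon and thigh muscle, so its dissected RNA can hold transcripts of all of them.

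Each array gave a signal per probe set in linear intensity units, and the array medians were 38.6 to 41.7 in naive and 44.7 to 47.6 in severe joints. Fold changes below are on the log2(signal + 16) scale, severe minus naive, with limma's standard error after the ± sign. The added 16 makes the changes of dim genes smaller than they were. A probe set or gene is said to rise or fall only where limma's adjusted p over all probe sets was under 0.05. Correlations of log2 values over probe sets were 0.977 to 0.978 among the naive arrays, 0.968 to 0.974 among the severe arrays, and 0.873 to 0.911 between the groups. The ratio of 3′ to 5′ beta-actin control signals was 0.89 to 1.03 on naive and 1.21 to 1.27 on severe arrays, without overlap, while that of Gapdh was 0.826 to 0.888 and 0.825 to 0.959. The part of RNA quality in the results was not tested.

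In severe joints 8999 probe sets rose and 6887 fell, which is 20.0% and 15.3% of those tested. The rises were the larger changes. Beyond a log2 change of 2 there were 974 rises and 390 falls, beyond 3 there were 221 and 46, and beyond 5 there were 15 and 1. The 3 severe arrays lay wholly above the 3 naive arrays for 8761 of the risen probe sets, and wholly below them for 6670 of the fallen ones. Among all probe sets, 25.7% had their severe arrays wholly above and 20.0% wholly below naive. With each of the 18193 named genes read from its brightest probe set, 4532 genes rose (24.9%) and 3261 fell (17.9%), and the median change was 0.06. These 2 shares are the background for counts of genes made with all arrays in the authors' scaling.

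The split between rises and falls depends on how arrays are brought to 1 scale. In the authors' scaling 56.6% of the called probe sets rose, and the median change of all probe sets was 0.04. With array medians aligned the share was 41.9% and the median -0.07, and with arrays scaled on 9 hybridization controls the share was 87.5% and the median 0.33. Of the named genes 18.5% rose and 23.1% fell with array medians aligned, and 27.8% rose and 3.53% fell with hybridization control scaling, which are the backgrounds for counts under those 2 settings. Falls that the hybridization control scaling no longer called are named where they occur.

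**Figure D1:**
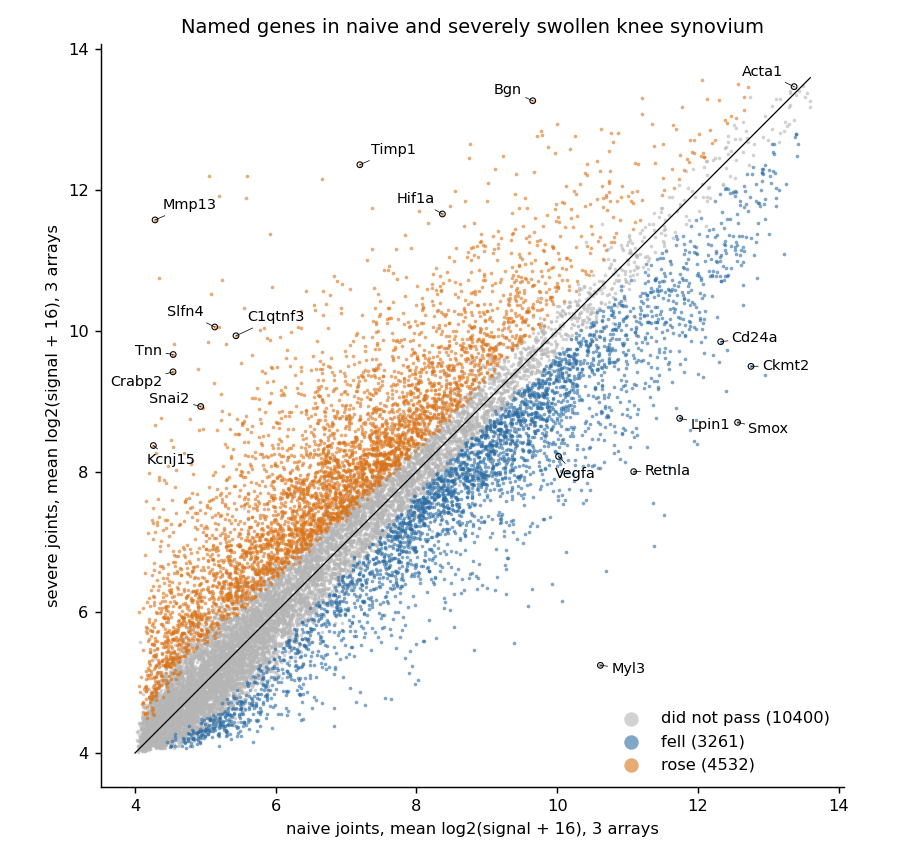
Mean log2(signal + 16) of each of the 18193 named genes in naive (horizontal axis) and severe joints (vertical axis), 3 arrays each, with the diagonal of no change. Genes that rose are orange and genes that fell are blue by limma's adjusted p, grey genes did not pass, and the rises named on the plot reach farther from the diagonal than most falls.

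Markers of synovium were present, beside those of neighbouring tissues. Of 7 synovial fibroblast markers 6 rose, and the summed signal of the panel went from 11796 to 12573 on naive arrays to 29753 to 43470 on severe arrays. Lubricin (Prg4), the lubricant of the joint surface, read 2856, 2148 and 2104 on the naive arrays and 8411, 7686 and 9998 on the severe arrays, a change of 1.88 ± 0.24. Its groups lay apart. Cadherin-11 (Cdh11), which holds lining fibroblasts to one another, was dim in naive joints at 34.1, 30.5 and 28.6 and read 1269, 1395 and 1136 in severe joints. The fibroblast surface protein Thy1 was the exception, at 0.53 ± 0.21 (limma, adjusted p = 0.0629), and it passed at 0.75 without severe replicate 2, at 0.53 with the filter on low signals and at 1.02 with hybridization control scaling. Less RNA or more RNA of a cell type in bulk tissue can mean fewer or more cells or another amount per cell, and these cannot be told apart here, in this result or in any below.

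Skeletal muscle RNA was abundant in both groups. Actin alpha 1 (Acta1), the thin-filament actin of muscle, read 11919.8, 9285 and 10603 on the naive and 11027, 8837 and 14914 on the severe arrays, and the arrays overlapped. Of the 9 muscle markers, Myh2 and Myh7 fell and the other 7 did not pass. Neither the fall of Myh2 nor that of Myh7 passed against joints without swelling. The summed muscle signal was 75789 to 88113 in naive and 58195 to 81612 in severe joints. Muscle creatine kinase (Ckm) changed by -0.03 ± 0.22 on its brightest probe set, but by -1.43 as a mean of its probe sets, where it was called. Acta1 and this Ckm probe set are among the brightest of the array, so the lack of a call on them does not show a steady level. Among the 50 brightest probe sets of the naive arrays, with mean signals of 8492 to 12402, 21 fell and 29 did not pass. Among the 50 brightest of the severe arrays 19 rose and 31 did not pass. Of all probe sets 20.0% rose and 15.3% fell. Choosing by the naive signal favours falls, and choosing by the severe signal favours rises. These counts therefore give no direction for bright probe sets. The part of muscle content in the results was not tested.

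Other panels covered cell types that a knee dissection can hold. All 4 neutrophil markers rose, and their summed signal went from 57.2 to 74.7 in naive to 8247 to 11442 in severe joints. All 3 macrophage markers rose, with sums of 1217 to 1321 and 4051 to 5192. Marrow granulocyte progenitor genes were not called as the neutrophil genes were, but Elane and Ctsg read 2.6 to 36.2, below the array medians. None of Mpo, Elane, Prtn3 and Ctsg passed by limma, with Prtn3 at an unadjusted p of 0.0444, and their sum was 113 to 158 in naive and 112 to 132 in severe joints. Prtn3 fell with array medians aligned (-0.85) or quantile normalization (-0.87), and Mpo rose with hybridization control scaling (0.95). Mpo read 45.5, 32.7 and 36.8 on naive and 61.1, 61.9 and 69.8 on severe arrays, without overlap. Of 6 chondrocyte markers 4 rose, led by aggrecan (Acan), the main proteoglycan of cartilage, from 24.2, 25.3 and 38 to 559, 255 and 307. Severe replicate 1 was the highest of these, and it was also the highest for type II collagen (Col2a1), at 307, 155 and 145 against 12.1, 20.2 and 49.1 in naive joints. Adiponectin (Adipoq), secreted by fat cells, fell from 1597, 750.0 and 913 to 298, 126 and 498, and 3 of 4 fat markers fell. The fatty-acid binding protein Fabp4 was the fourth, with a change of -0.29 ± 0.16 that passed only with aligned medians, at -0.51. Both B cell markers, Cd79a and Ms4a1, read 14.9 to 54.4 on these arrays and did not pass. Of the 4 T cell markers 2 rose and Cd3e and Cd8a did not pass. Cd3g rose by 1.1 ± 0.28 from 5.2, 26.3 and 11.7 to 56.3, 36.9 and 48.6. Cd4 rose by 0.85 ± 0.29 from 3.2, 7.9 and 6.3 to 15.5, 13.6 and 48.1, near the bottom of the signal range. It did not pass without any 1 of naive replicates 1, 2 and 3 or without severe replicate 3 (0.49 to 0.92), with a pseudocount of 64 (0.34), with only the 2 groups fitted (0.85) or as a mean of its probe sets (0.32). The platelet and endothelial adhesion molecule Pecam1 rose by 0.99 ± 0.14, while the endothelial cadherin Cdh5 (0.35 ± 0.15) and the angiopoietin receptor Tek (-0.03 ± 0.20) did not pass. Cdh5 passed at 0.55 without severe replicate 1 and at 0.83 with hybridization control scaling, while its other probe set fell.

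Tendon, bone, skin, nerve and red cell panels were small. Of 3 tendon cell markers Mkx and Scx, 2 tendon transcription factors, rose by 1.54 ± 0.28 and 1.25 ± 0.26, and Tnmd (0.66 ± 0.32) passed only without severe replicate 2 (1.08) and with hybridization control scaling (1.16). Their summed signal was 543 to 633 in naive and 625 to 1733 in severe joints, with overlap. Of 3 osteoblast markers, Ibsp (1.51 ± 0.71), Sp7 (-0.03 ± 0.24) and Dmp1 (0.2 ± 0.57), 0 passed by limma, at adjusted p of 0.116, 0.945 and 0.831, and 0 had an unadjusted p under 0.05. Ibsp passed with hybridization control scaling (1.7), a pseudocount of 1 (4.06) or only the 2 groups fitted (1.51). The keratins Krt5 and Krt10 of skin fell by 0.92 ± 0.23 and fell by 0.64 ± 0.20, and Krt14 (-0.37 ± 0.25) did not pass. Neither fall passed with hybridization control scaling, and Krt10 also did not pass without naive replicate 3, severe replicate 1 or severe replicate 2. The keratin sums were 217 to 276 in naive and 123 to 159 in severe joints. Myelin basic protein (Mbp), the 1 Schwann cell marker measured, changed by -0.86 ± 0.25. It did not pass with hybridization control scaling or without naive replicate 2, severe replicate 1 or severe replicate 3, and changed by 0.07 as a mean of its probe sets. Alas2, which starts haem synthesis in red cell precursors, fell by 1.51 ± 0.37 with no overlap between groups, and the globin Hba-a1 (-0.15 ± 0.28) did not pass. The part of these tissues in the results was not tested.

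Beyond the best-known arthritis genes, the largest rises included matrix, retinoid, nerve-muscle and myeloid genes. Tenascin N (Tnn), a matricellular protein, read 5.9, 8.3 and 7.8 on the naive arrays and 890.4, 618 and 912 on the severe arrays, a change of 5.12 ± 0.59 (limma, adjusted p = 7.81e-06). Crabp2, which carries retinoic acid to its nuclear receptor, went from 12.5, 2.2 and 8.3 to 762, 480.5 and 812, a change of 4.88 ± 0.56. In both genes the 3 naive arrays were near the bottom of the signal range and the 3 severe arrays were far above them. Ccn4, a matricellular protein induced by Wnt signals, rose by 4.57 ± 0.36, and Ltbp2, a protein of elastic microfibrils, by 4.23 ± 0.30. C1qtnf3, a secreted protein related to complement C1q and made by cartilage and fat, read 19.2, 43 and 23 in naive and 756, 1150.3 and 1014 in severe joints. The neuronal adhesion molecule Chl1 rose by 4.52 ± 0.30, and the secreted peptide precursor Ecrg4 by 4.14 ± 0.57. The severe arrays of Chl1 read 896, 662 and 1174 and those of Ecrg4 read 1645, 1267 and 1624.

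Among the myeloid genes of the same rank, Slfn4, a schlafen family member of monocytes and macrophages, read 32.9, 5.9 and 24.4 on naive and 1217, 804 and 1173 on severe arrays. Lipocalin 2 (Lcn2), which neutrophils release to withhold bacterial iron carriers, went from 4.2, 28.6 and 23.4 to 997, 746 and 969. Ms4a7, a membrane protein of macrophages, went from 48.6, 35.3 and 39.7 to 1160.5, 884 and 1095. The changes of these 3 genes were 4.92 ± 0.31, 4.8 ± 0.49 and 4.21 ± 0.33. Chrna1 encodes the alpha subunit of the acetylcholine receptor of muscle, which spreads along denervated fibres. Its signal was 24.1, 65 and 55.5 in naive and 1374, 2609.5 and 1061 in severe joints, the highest on severe replicate 2, with a change of 4.68 ± 0.77 (limma, adjusted p = 0.000188). Against joints without swelling the change of Chrna1 was 2.24 ± 0.77, and 1 array moved it far. Those arrays read 1813, 185 and 85.8, and the change was 3.46 without the first of them. It did not pass without no swelling replicate 2 (1.87) or 3 (1.38), or without severe replicate 1 (2.33) or 2 (1.87).

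Several genes that act in muscle were among the largest falls. The light chain of slow and heart myosin, Myl3, read 1612, 2023 and 1144 on naive and 15.5, 15.2 and 39.6 on severe arrays, a change of -5.37 ± 0.80 (limma, adjusted p = 7.36e-05). Its partner of slow fibres, Myh7, read 1373, 2704 and 1201 and 124, 26.6 and 134, and naive replicate 2 was the highest for both. Against joints without swelling, which read 48.4, 947 and 134, the change of Myl3 was -2.47 ± 0.80. It did not pass without no swelling replicate 2 (-1.37), severe replicate 1 (-2.34) or severe replicate 2 (-2.33). Myh7 read 87.4, 763 and 65.5 in joints without swelling, and its change from them, -0.96 ± 0.89, did not pass (limma, adjusted p = 0.462). Nor did that of Myh2, at -1.96 ± 0.75 (limma, adjusted p = 0.0567). The myosin light chain kinases Mylk2 and Mylk4 changed by -3.5 ± 0.39 and -3.24 ± 0.26, and heart-type actin Actc1 by -2.93 ± 0.32. Ckmt2, the mitochondrial creatine kinase of muscle, read 7033, 6594 and 7059 in naive and 499, 633 and 1108 in severe joints. Cox7a1, the muscle form of a cytochrome oxidase subunit, read 3699, 3551 and 4036 and 304, 371 and 445. These 2 energy genes fell by 3.26 ± 0.29 and 3.29 ± 0.26. Ank1, which anchors the sarcoplasmic reticulum in muscle, fell by 3.24 ± 0.38. Slc30a2, a zinc exporter, fell by 3.36 ± 0.32, and the methyltransferase Mettl21e fell by 3.49 ± 0.36.

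Some of the large falls are not contractile genes. Lipin 1 (Lpin1), a phosphatidate phosphatase of triglyceride synthesis, read 3604, 3271 and 3354 in naive and 306, 440.1 and 534 in severe joints, a change of -2.98 ± 0.21 (limma, adjusted p = 2.06e-07). Tigar, a phosphatase that restrains glycolysis, fell by 2.81 ± 0.21, and the lipid esterase Ces1d fell by 3.0 ± 0.28. Retnla, a secreted product of macrophages activated by interleukin 4, read 2272, 2191 and 2023 on naive arrays and 455, 81.1 and 349.6 on severe arrays. Its lowest value was on severe replicate 2, and its change of -3.09 ± 0.54 (limma, adjusted p = 0.000328) ran against Arg1, an arginase also linked to such macrophages, which rose by 4.38 ± 0.34 from 2.3, 6.5 and 1.8 to 359, 349.6 and 469.

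**Figure D2:**
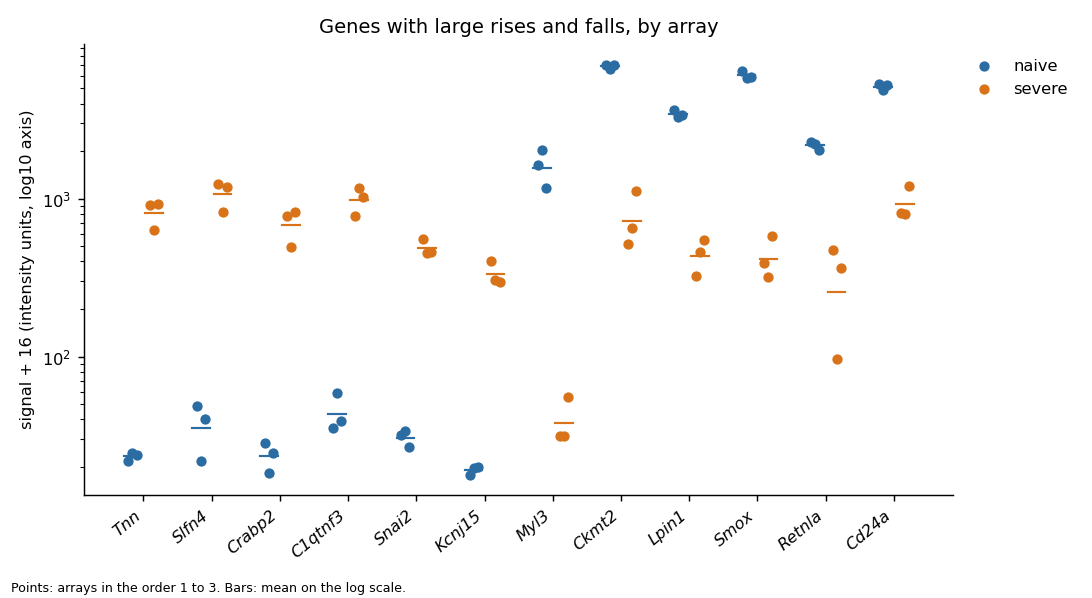
Signal on each of the 3 naive (blue) and 3 severe (orange) arrays, 1 point per array, for 12 genes named in the text, on a log10 axis of signal + 16 in intensity units. The 6 risen genes are on the left and the 6 fallen genes on the right. In all 12 genes the points of the 2 groups are apart, which for some of them was a condition of their choice.

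Promoters of the extreme genes, which were chosen by their change in this comparison, are shown for 2 sequence motifs. The part of these motifs in the changes was not tested. RefSeq promoter windows of 250 bases before the transcription start (build GRCm38.p6) were found for 23 of the 30 highest and 24 of the 30 lowest genes, and for 14452 named genes. The AP-1 motif TGANTCA, searched on both strands, was in the window of 6 of the 23 highest genes (26.1%), of 2 of the 24 lowest (8.33%) and of 6.7% of all named genes with a window. The E-box motif CANCTG, in which muscle regulatory factors bind, was in 47.8% of the highest, 70.8% of the lowest and 45.9% of all. It may overlap other E-box motifs, and a match describes the letters only. The kappaB motif (GGGA, any 4 bases, CC) was in 21.7%, 16.7% and 24.6%, the MEF2 motif (CTA, any 4 bases, TAG) in 0.0%, 4.17% and 3.54%, and the ERR motif TCAAGGTCA in 0.0%, 0.0% and 0.374%. Capitals mark the AP-1 match in the windows of collagenase 3 (Mmp13), stromelysin 1 (Mmp3) and Slfn4, and the E-box matches in those of Ckmt2 and Fbp2, the muscle fructose bisphosphatase.
Mmp13, chr9:7272264-7272513, plus strand: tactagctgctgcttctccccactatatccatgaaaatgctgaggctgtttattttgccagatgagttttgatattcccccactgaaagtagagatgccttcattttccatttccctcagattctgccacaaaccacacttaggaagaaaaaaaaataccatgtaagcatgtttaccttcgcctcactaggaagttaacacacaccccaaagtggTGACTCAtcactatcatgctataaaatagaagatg
Mmp3, chr9:7445572-7445821, plus strand: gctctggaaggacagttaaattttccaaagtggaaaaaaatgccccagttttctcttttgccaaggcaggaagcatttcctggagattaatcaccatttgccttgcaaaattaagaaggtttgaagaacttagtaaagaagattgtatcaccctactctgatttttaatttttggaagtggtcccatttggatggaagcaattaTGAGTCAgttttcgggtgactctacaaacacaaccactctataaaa
Slfn4, chr11:83174936-83175185, plus strand: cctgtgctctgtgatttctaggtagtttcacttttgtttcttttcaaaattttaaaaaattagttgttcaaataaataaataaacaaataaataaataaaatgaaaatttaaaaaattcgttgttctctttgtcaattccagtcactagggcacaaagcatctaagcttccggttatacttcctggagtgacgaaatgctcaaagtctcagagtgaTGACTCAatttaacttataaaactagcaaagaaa
Ckmt2, chr13:91876886-91877135, minus strand: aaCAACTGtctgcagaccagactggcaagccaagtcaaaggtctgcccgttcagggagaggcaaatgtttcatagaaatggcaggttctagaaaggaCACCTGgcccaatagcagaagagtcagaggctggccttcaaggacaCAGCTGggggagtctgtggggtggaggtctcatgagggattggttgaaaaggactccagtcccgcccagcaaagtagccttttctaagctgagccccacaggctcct
Fbp2, chr13:62858401-62858650, minus strand: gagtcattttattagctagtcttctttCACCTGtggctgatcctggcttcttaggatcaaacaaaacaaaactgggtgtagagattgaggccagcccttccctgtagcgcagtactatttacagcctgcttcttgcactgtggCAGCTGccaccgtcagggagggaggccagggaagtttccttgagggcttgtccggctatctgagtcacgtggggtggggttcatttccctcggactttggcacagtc
The AP-1 match starts -35 bases from the start of Mmp13, -46 from that of Mmp3 and -34 from that of Slfn4. Mmp13 read 0.8, 7.1 and 3.1 in naive and 3554, 3752 and 2099 in severe joints, and Mmp3 read 104, 95.5 and 60.1 and 5659.7, 3298 and 5077. Fbp2 read 2641, 2352 and 2852 in naive and 119.8, 159 and 266 in severe joints. Fbp2 holds an AP-1 match too, not shown in capitals.

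Myeloid signalling genes rose almost without exception. Of 17 kinases, phosphatases and adaptors of myeloid cells 16 rose and 0 fell, with a median of 1.72. Ptprc (CD45), the phosphatase found on all leukocytes, read 102, 87 and 79.5 on naive and 1412, 1039 and 1566 on severe arrays. The Src-family kinase Fgr rose by 2.71 ± 0.25, the GTPase Rac2 of the neutrophil oxidase by 2.32 ± 0.22 and the adaptor Pik3ap1 by 2.36 ± 0.25. Of 17 inhibitory and activating myeloid receptors 13 rose and 0 fell, with a median of 1.54. Inhibitory receptor Pirb read 26.9, 25.9 and 16.8 and 353, 254 and 359.6, and Sirpa, which binds CD47 on other cells, read 174, 153 and 160.0 and 1639, 1095 and 1382. Both kinds of receptor rose, since the activating Sirpb1a went up by 3.57 ± 0.29 and Cd300lf by 2.66 ± 0.24. Of 11 members of the MS4A family 6 rose, Ms4a6d by 3.39 ± 0.30 and Ms4a6c by 2.57 ± 0.28. The B cell member Ms4a1 (CD20) did not pass, at 0.16 ± 0.17.

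Receptors for nucleotides and for bacterial peptides let phagocytes, among other cells, sense damage. Of 15 such genes 8 rose and 2 fell. The ectonucleotidase Nt5e (CD73), which makes adenosine, read 32.6, 48.5 and 44.8 in naive and 808, 552 and 649 in severe joints. The UDP receptor P2ry6 rose by 2.77 ± 0.24 and the formyl peptide receptor Fpr2 by 2.39 ± 0.24. The ATP receptor P2rx5 fell by 1.66 ± 0.22 and P2ry2 by 1.32 ± 0.18, and P2ry2 no longer passed with hybridization control scaling. Among 18 checkpoint and costimulatory genes 10 rose and 0 fell. The B7 family member Cd276 changed by 2.85 ± 0.28, Vsir by 2.07 ± 0.19 and Havcr2 (TIM-3) by 1.9 ± 0.23, with Cd276 going from 27.1, 24.5 and 23.8 to 341, 212 and 307.

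Natural killer and dendritic cell genes were measured as well. Of 13 natural killer and cytotoxic genes 2 rose, a share below the 24.9% of all named genes, with a median of 0.1. They were Klrd1, at 0.98 ± 0.21, and Klrk1, at 1.01 ± 0.33. Klrk1 did not pass with array medians aligned, with quantile normalization, or without naive replicate 2, naive replicate 3, severe replicate 1 or severe replicate 2, at changes of 0.73 to 1.01. Of 16 dendritic cell genes 6 rose and 1 fell, with a median of 0.24. The integrin Itgax (CD11c) rose by 2.0 ± 0.25 and the actin bundler Fscn1 of migrating dendritic cells by 3.15 ± 0.22, from 163, 176 and 230.3 to 1928, 1522 and 1969. The fallen member was Cd24a, a glycosylated surface protein of many immature cells, at 5282, 4830.1 and 5226 on naive and 793, 781 and 1192 on severe arrays. Its change of -2.48 ± 0.20 was the reverse of that of Itgax.

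Transcription factors of myeloid cells rose in 13 of 20 cases and fell in 3, a share of falls no larger than among all named genes. Hif1a, the oxygen-regulated subunit of hypoxia-inducible factor 1, read 349, 307 and 291 on naive and 3091, 2846 and 3797 on severe arrays. Runx1, needed for blood cell formation, went from 51.7, 46.2 and 38.6 to 493, 547 and 582, and the lymphoid and myeloid factor Ikzf1 from 3.4, 8.3 and 1.8 to 209.9, 110.2 and 136. Their changes were 3.29 ± 0.22, 3.18 ± 0.25 and 3.0 ± 0.28, and no severe array overlapped naive. Cebpd, a factor of the acute-phase response, rose by 1.96 ± 0.17 against naive but by 0.41 ± 0.17 against joints without swelling, which did not pass (limma, adjusted p = 0.0735) but did at 0.59 without severe replicate 2 and at 0.54 with quantile normalization. The fallen factors were Maf (-1.0 ± 0.16), Bcl6 (-0.88 ± 0.23) and Nfil3 (-1.59 ± 0.26). Maf and Bcl6 no longer passed with hybridization control scaling. Nfil3 differed from joints without swelling by 0.13 ± 0.26, which did not pass (limma, adjusted p = 0.747).

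NF-kappaB genes rose, its own inhibitors among them. NF-kappaB is the factor that tumour necrosis factor, interleukin 1 and Toll-like receptors activate, and it induces its own inhibitors. Of 16 genes 12 rose and 0 fell, with a median of 1.19. The inhibitor Nfkbie read 1.3, 1.4 and 16.3 on naive and 232, 215 and 215 on severe arrays, and Nfkbia read 1238, 1275 and 1268 and 4426, 3599.8 and 5129. The nuclear IkappaB proteins Nfkbiz and Bcl3 rose by 3.09 ± 0.20 and 2.67 ± 0.23. All 4 genes lay apart between groups.

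Programmed cell death genes rose in 11 of 21 cases and fell in 3, a share of falls no larger than among all named genes. Caspase 6 (Casp6) read 9.7, 47.2 and 38.3 on naive and 306, 189 and 304 on severe arrays, a change of 2.64 ± 0.32. The necroptosis kinase Ripk3 rose by 2.47 ± 0.26 and the BH3-only protein Bcl2l11 (BIM), which promotes apoptosis, by 1.25 ± 0.11. The survival protein Bcl2 fell by 0.81 ± 0.15, which did not pass with hybridization control scaling. Gasdermin E (Gsdme) fell by 1.45 ± 0.17 on its brightest probe set, and its other probe set was called the other way.

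The clotting system joined the rises. Of 19 coagulation and fibrinolysis genes 13 rose and 0 fell, with a median of 1.29. Tfpi2, an inhibitor of serine proteases such as plasmin, read 33.7, 37 and 15.8 on naive and 417, 384 and 438 on severe arrays. The thrombin receptor F2r rose by 1.75 ± 0.17, the urokinase receptor Plaur by 1.55 ± 0.21 and protein S (Pros1), an anticoagulant cofactor, by 1.53 ± 0.21. Of 16 annexins and S100 proteins other than calprotectin 9 rose. S100a4, a protein of motile fibroblasts and leukocytes, went from 666, 657 and 604 to 3694, 2684 and 3502. S100a1, the form found in striated muscle, fell from 1942, 1958 and 2103 to 556, 843 and 705.

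Matrix genes outside the fibrillar collagens rose in the same joints. Elastic fibres are built of elastin on a scaffold of fibrillin microfibrils, and of 17 genes of these fibres 14 rose and 1 fell (2 without severe replicate 1), with a median of 1.49. Emilin1, which sits between elastin and microfibrils, read 70.0, 56.1 and 48 on naive and 885, 580.3 and 697 on severe arrays. The microfibril protein Mfap4 read 6.3, 6.7 and 9.6 and 1173, 487 and 1208, with severe replicate 2 the lowest of its group. Ltbp3, which stores latent TGF-beta, rose by 1.98 ± 0.21 and Mfap2 by 2.35 ± 0.20. The fallen member, vitronectin (Vtn, -0.93 ± 0.20), did not pass with hybridization control scaling or as a mean of its probe sets.

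Proteoglycans rose in 12 of 20 cases and fell in 2. Biglycan (Bgn), a small leucine-rich proteoglycan bound to collagen, read 865, 781 and 726 on naive and 10518, 7726 and 11796 on severe arrays. Syndecan 1 (Sdc1), a heparan sulphate proteoglycan of cell surfaces, read 78.9, 74.3 and 77.5 and 1654, 1131 and 1182. Versican (Vcan) rose by 3.32 ± 0.30 and serglycin (Srgn), the proteoglycan of leukocyte granules, by 2.38 ± 0.22. The fallen members were glypicans 1 and 3 (Gpc1 -0.78 ± 0.15, Gpc3 -0.65 ± 0.20). Neither passed with hybridization control scaling, and Gpc3 also did not pass without naive replicate 1, severe replicate 1 or severe replicate 2.

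Of 19 basement membrane genes 9 rose and 1 fell, and the median of 0.21 turned to -0.01 with array medians aligned. Collagen XVIII (Col18a1), the source of endostatin, read 134, 134 and 111 and 1197, 826 and 961. The laminin chains Lamb1 and Lama4 rose by 2.51 ± 0.26 and 1.62 ± 0.21 and nidogen 2 (Nid2) by 1.78 ± 0.21, while Lamb2, a laminin chain of the neuromuscular junction, changed by -1.02 ± 0.19. The fall of Lamb2 did not pass with hybridization control scaling, and the number of fallen members was 3 without severe replicate 3.

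Actin remodelling genes rose in 17 of 19 cases and fell in 0 (1 without severe replicate 2), with a median of 1.59. Cofilin 1 (Cfl1), which severs actin filaments, read 678, 826 and 698 on naive and 4146, 3295 and 3959.5 on severe arrays. The filament-capping protein Capg rose by 2.58 ± 0.18 and moesin (Msn), which ties actin to the membrane, by 2.06 ± 0.15. Of 19 contractile and pericyte genes 7 rose and 3 fell, a share of falls no larger than among all named genes. The median of 0.01 was -0.18 with array medians aligned and 0.52 with hybridization control scaling. Calponin 2 (Cnn2) rose by 2.08 ± 0.17 and tropomyosin 4 (Tpm4) by 2.01 ± 0.19. Abcc9 and Kcnj8, subunits of a potassium channel of pericytes, changed by -0.94 ± 0.22 and -0.97 ± 0.25, and the smooth muscle light chain Myl9 by -0.59 ± 0.16. None of these 3 falls passed with hybridization control scaling.

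Transcription factors of mesenchymal cells rose in 13 of 21 cases and fell in 1. The zinc-finger repressors Snai2 and Snai1 act in cells that leave an epithelium or invade. Snai2 read 15.6, 17.7 and 10.8 on naive and 536, 436 and 445 on severe arrays, and Snai1 read 21.5, 32.5 and 24.8 and 382, 270.0 and 269. Sox4 rose by 2.54 ± 0.18 and the T-box factor Tbx18 by 2.68 ± 0.26, while Tbx15 changed by -0.87 ± 0.26 with overlapping arrays. Severe replicate 2 read 921 for Tbx15, within the naive range, and the fall did not pass without severe replicate 1 or 3, with hybridization control scaling or with only the 2 groups fitted.

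Semaphorins are secreted or membrane-bound guidance proteins, and plexins and neuropilins are their receptors. Of 26 genes 15 rose and 1 fell, with a median of 0.78. The receptor Plxnb2 read 73.5, 112 and 74.7 on naive and 734, 583 and 765 on severe arrays, and its relative Plxnd1 rose by 1.93 ± 0.20. The coreceptor Nrp2 rose by 2.45 ± 0.22 and the ligand Sema4d, which binds B-type plexins, by 1.87 ± 0.20. Sema3c was the fallen member at -0.89 ± 0.13, and did not pass with hybridization control scaling.

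In the insulin-like growth factor (IGF) axis the ligand and its regulators rose and the insulin receptor substrates fell. Igf1 read 474, 412 and 384 on naive and 2501, 1490.3 and 2252 on severe arrays. Pappa, a protease that frees IGF from its binding proteins, read 1.8, 1.7 and 1.6 and 144, 87 and 69.6, and Igfbp4, its substrate, rose by 1.89 ± 0.25. Irs1 and Irs2, the adaptors below both receptors, changed by -1.4 ± 0.21 and -1.16 ± 0.21, and the insulin receptor Insr by -0.52 ± 0.11 (-0.06 as a mean of its probe sets, which did not pass). The IGF receptor Igf1r rose by 1.06 ± 0.14 on its brightest probe set. Of 16 genes 8 rose and 3 fell, the falls at a share near the 17.9% of all named genes. Only 5 rose without naive replicate 2, severe replicate 1 or severe replicate 2 or with array medians aligned, and Irs1, Irs2 and Insr did not pass with hybridization control scaling.

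Notch pathway genes, which act between touching cells, rose in 6 of 14 cases and fell in 2, a share of falls no larger than among all named genes. Notch2 read 144, 168 and 132 on naive and 608, 615 and 699.5 on severe arrays, and the ligand Jag1 rose by 1.16 ± 0.15. Jag2 changed by -1.17 ± 0.20 and the target Hey1 by -1.1 ± 0.28, 2 falls that did not pass with hybridization control scaling, and with array medians aligned 3 genes rose.

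Of 15 genes of pain and sensory nerves 4 rose, a share near that of all named genes, and 1 fell (2 without severe replicate 3), with a median of 0.03. Calcrl, the receptor for the neuropeptide CGRP when paired with Ramp1, read 69.1, 93.1 and 82.1 on naive and 351, 461 and 423 on severe arrays. Ramp1 went the other way, from 669.6, 723 and 747 to 91.4, 83.9 and 176, a change of -2.52 ± 0.35. The bradykinin receptor Bdkrb1 rose by 1.76 ± 0.23 and artemin (Artn), a growth factor of sensory neurons, by 1.95 ± 0.30.

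**Figure D3:**
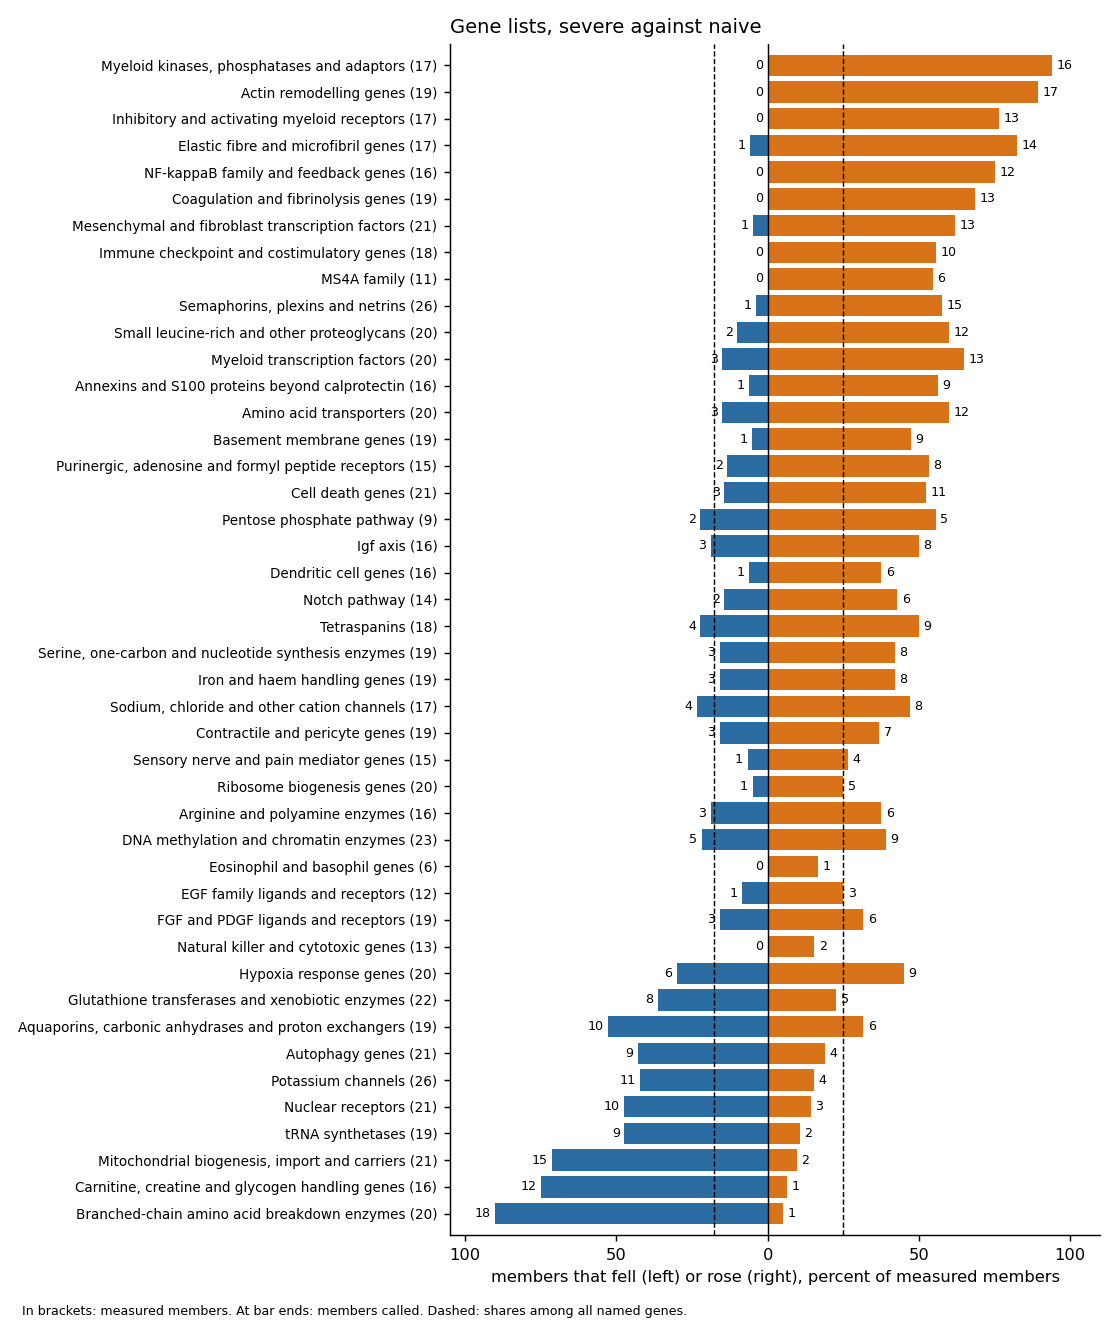
For 44 gene lists, the share of measured members that rose (orange, to the right) or fell (blue, to the left) in severe against naive joints, in percent, with the member counts at the bar ends. Dashed lines mark the shares among all 18193 named genes, 24.9% and 17.9%, and lists of myeloid, actin and elastic fibre genes extend far past the first line while branched-chain amino acid enzymes extend far past the second.

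The response to low oxygen was divided. Hypoxia-inducible factor 1 is a dimer whose alpha subunit is destroyed in the presence of oxygen after prolyl hydroxylases such as Egln1 mark it. Of 20 hypoxia genes 9 rose and 6 fell, with a median of 0.28, beside the rise of Hif1a. The lipid droplet coat protein Plin2 read 409, 363 and 443 on naive and 2146, 2098 and 2069 on severe arrays. Vascular endothelial growth factor A (Vegfa) read 925, 1179 and 978 and 263, 292 and 289.6, without overlap. Pfkfb3, which speeds glycolysis, read 1792, 1996 and 1989 and 287, 437 and 351, and Egln1 read 2575, 2784 and 2819 and 569, 605 and 659.9. The changes of Vegfa, Pfkfb3 and Egln1 were -1.8 ± 0.18, -2.39 ± 0.23 and -2.13 ± 0.19, and the mitophagy receptor Bnip3 fell by 1.29 ± 0.18. With hybridization control scaling 3 hypoxia genes still fell, and Bnip3 was not among them. Against joints without swelling, Vegfa was lower by 0.97 ± 0.18 and Pfkfb3 by 2.95 ± 0.23.

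**Figure D4:**
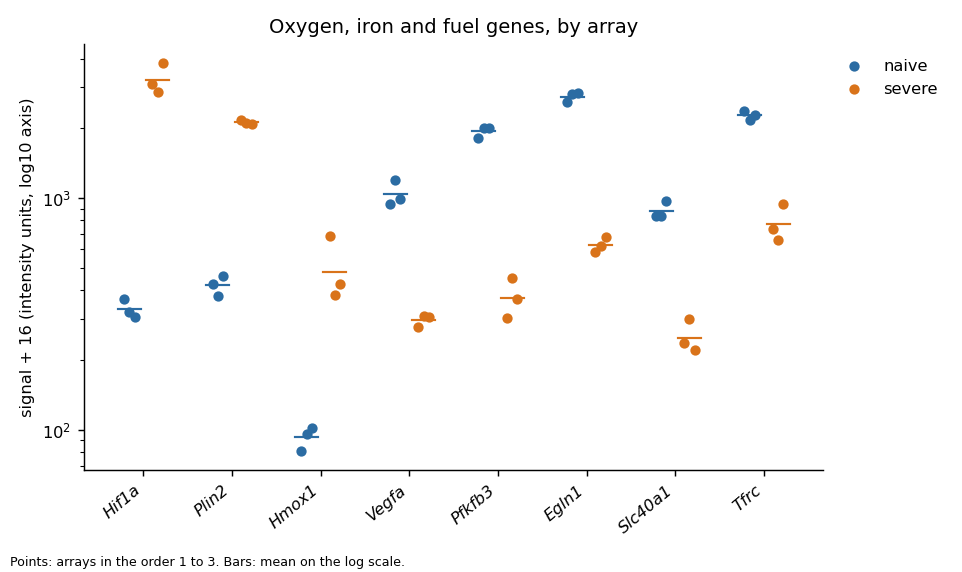
Signal + 16 on a log10 axis, in intensity units, of 8 oxygen, iron and fuel genes on each of the 3 naive (blue) and 3 severe (orange) arrays. Hif1a, Plin2 and Hmox1 sit higher in severe joints, and Vegfa, Pfkfb3, Egln1, Slc40a1 and Tfrc sit lower, with no overlap in any of the 8.

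Of 19 iron and haem genes 8 rose and 3 fell, and the share that fell was no larger than among all named genes. Haem oxygenase 1 (Hmox1), which breaks haem down, read 65.2, 80.3 and 85.6 on naive and 671, 364 and 409 on severe arrays. Ferroportin (Slc40a1), the only known iron exporter of mammalian cells, read 821, 824 and 951 and 220.0, 283 and 205. The transferrin receptor Tfrc, which brings iron in, fell from 2352, 2163 and 2255 to 719, 643 and 925, so import and export genes fell together. Ferrochelatase (Fech), the last enzyme of haem synthesis, changed by -1.14 ± 0.12 and did not pass with hybridization control scaling.

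Enzymes that burn branched-chain amino acids fell, and the cytosolic enzyme of their first step rose. Of 20 genes 18 fell and 1 rose, with a median of -0.94. Dihydrolipoamide dehydrogenase (Dld) read 1516, 1658 and 1645 on naive and 419.7, 646 and 546 on severe arrays, and the propionyl-CoA carboxylase subunits Pcca and Pccb changed by -1.51 ± 0.17 and -1.2 ± 0.12. Bcat1, the transaminase of the cytosol, rose from 15.1, 21.9 and 18.8 to 235, 101 and 234. With hybridization control scaling 2 of the 20 fell, and Pccb was not called.

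Mitochondrial supply genes fell as well. Of 21 genes of mitochondrial biogenesis, import and carriers 15 fell and 2 rose, with a median of -0.91, and 7 fell with hybridization control scaling. Perm1, a muscle regulator of oxidative genes, read 1157, 1049 and 980.2 on naive and 50.2, 43.5 and 76.5 on severe arrays. Its partner Esrra, the estrogen-related receptor that drives respiratory genes, read 564, 614 and 586 and 101, 148 and 136. Another probe set of Esrra was called the other way. Mitofusin 2 (Mfn2) fell by 2.03 ± 0.24 and the aspartate carrier Slc25a12 by 2.21 ± 0.25. Of 16 carnitine, creatine and glycogen genes 12 fell and 1 rose, with a median of -1.17, and 7 fell with hybridization control scaling. Glycogen synthase (Gys1) read 2216, 2157 and 2288 and 595, 576 and 583, and the phosphorylase kinase subunit Phkg1 fell by 2.42 ± 0.24. The phosphatase targeting subunit Ppp1r3c fell by 2.09 ± 0.20. Pgm2 was the riser at 0.86 ± 0.21.

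The pentose phosphate pathway, which supplies NADPH and ribose, leaned the other way. Of 9 genes 5 rose and 2 fell, the falls at a share near that of all named genes, with a median of 0.41. Its dehydrogenase Pgd read 258, 201 and 238 on naive and 1012, 684 and 748 on severe arrays, and transketolase (Tkt) rose by 1.69 ± 0.20. Prps2, which makes the activated ribose of nucleotides, rose by 1.41 ± 0.17, and its relative Prps1 changed by -0.55 ± 0.15. The falls of Prps1 and of the isomerase Rpia (-0.87 ± 0.16) did not pass with hybridization control scaling, nor did Prps1 without naive replicate 1.

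Of 16 arginine and polyamine enzymes 6 rose and 3 fell, the falls at a share near that of all named genes. Spermidine synthase (Srm) read 198, 202 and 166 on naive and 1013, 696 and 818 on severe arrays, and Sat1, which acetylates polyamines for export, rose by 1.95 ± 0.17. Spermine oxidase (Smox) was among the largest falls, from 6395, 5823 and 5907 to 376, 301 and 561. The median of -0.04 over the 16 was 0.1 with quantile normalization and 0.47 with hybridization control scaling.

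Amino acid transporters rose in 12 of 20 cases and fell in 3, a share of falls no larger than among all named genes. Slc38a10 rose by 1.28 ± 0.14 and the glutamine carrier Slc38a1 by 1.15 ± 0.13. Their relatives Slc38a3 and Slc38a4 fell, Slc38a4 from 1570.0, 1202 and 1457 to 251, 404 and 298. Slc38a2 changed by -0.9 ± 0.14 and did not pass with hybridization control scaling, so 1 family held both directions.

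Of 22 xenobiotic and steroid enzymes 5 rose, near the share of all named genes, and 8 fell, with a median of -0.29 that turned to 0.1 with hybridization control scaling, where 3 fell. Cyp1b1, which oxidizes steroids and aromatic compounds, read 120.1, 111 and 91.3 on naive and 1775, 1329 and 1776 on severe arrays. Cyp7b1, which hydroxylates oxysterols, read 8.3, 7.5 and 8.3 and 239.9, 231 and 263. Microsomal glutathione transferase 3 (Mgst3) fell from 4200.1, 4238 and 4467 to 481, 645 and 821.

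Ligand-activated nuclear receptors fell more often than they rose, 10 against 3 of 21, with a median of -0.53. The vitamin D receptor Vdr rose, from 2.4, 3.2 and 4.9 to 129, 117 and 129. Nr4a2, an immediate early gene, rose by 2.26 ± 0.40 and the retinoic acid receptor Rarg by 0.77 ± 0.18. The retinoid partner receptors Rxrg and Rxra changed by -1.7 ± 0.18 and -1.2 ± 0.14, and the estrogen receptor Esr1 by -1.45 ± 0.17. With hybridization control scaling 4 fell, and Rxra was not among them.

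Chromatin enzymes rose in 9 of 23 cases and fell in 5, the falls at a share near that of all named genes. Uhrf1, which recruits the maintenance DNA methyltransferase at replication, read 9.2, 3.9 and 1.4 on naive and 108, 142 and 95.4 on severe arrays, and that methyltransferase, Dnmt1, rose by 1.62 ± 0.17. The histone deacetylase Hdac1 rose by 1.14 ± 0.13. Smyd1, a methyltransferase of muscle needed to build sarcomeres, fell from 3096, 3282 and 3084 to 402, 884 and 611, and Smyd2 by 1.61 ± 0.16. Dnmt3a changed by -0.88 ± 0.10 and did not pass with hybridization control scaling. Without severe replicate 2 the number of falls was 3. Transfer RNA synthetases leaned lower, with 9 falls and 2 rises of 19 and a median of -0.36. Isoleucyl and methionyl synthetases changed by -0.87 ± 0.14 and -0.86 ± 0.12 (Iars and Mars1), and the histidyl synthetase Hars by 0.88 ± 0.16. The tRNA synthetase falls were 5 without naive replicate 2 and 0 with hybridization control scaling, where the median was 0.14.

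Of 26 potassium channel genes 4 rose and 11 fell, with a median of -0.18 that was 0.27 with hybridization control scaling, where 7 fell. The inward rectifier Kcnj15 read 1.8, 3.8 and 4 on naive and 385, 287 and 282 on severe arrays, and the calcium-activated channel Kcnn4, which T cells and macrophages use, read 14.2, 9.2 and 14 and 273, 176 and 266. The muscle channels Kcna7 and Kcnab1 fell by 2.72 ± 0.25 and 2.73 ± 0.26. Kcnj11, the ATP-sensitive channel of muscle, fell from 993, 954 and 1069 to 236, 347 and 299.

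Of 17 sodium, chloride and other cation channels 8 rose and 4 fell, the falls at a share near that of all named genes. The mechanosensitive channel Piezo1 rose by 1.23 ± 0.13 and Clic1 by 2.17 ± 0.19. The chloride channel of muscle, Clcn1, fell from 433, 629.6 and 775 to 77.1, 119 and 69.3, and Clic5 fell by 2.54 ± 0.22 while its relative Clic4 rose by 1.54 ± 0.13. Of 19 aquaporins, carbonic anhydrases and proton exchangers 6 rose and 10 fell, and 6 fell with hybridization control scaling. The water channel Aqp5, known from secretory glands, read 5, 3.5 and 3.8 on naive and 276, 126 and 165 on severe arrays. The lactate exporter Slc16a3 read 2038, 1882 and 2369 and 348, 253 and 339, a change of -2.69 ± 0.27. Carbonic anhydrase 14 (Car14) fell by 2.27 ± 0.23 and Car13 rose by 2.09 ± 0.25. Tetraspanins, membrane organizers, rose in 9 of 18 cases and fell in 4, the falls at a share near that of all named genes. Tspan4 read 76.4, 73.4 and 85.4 on naive and 1449, 978 and 1366 on severe arrays, and the leukocyte member Cd53 rose by 2.74 ± 0.25. Tspan8 fell from 1531, 1419 and 1619.9 to 177, 312 and 281, and without severe replicate 1 or 3 the number of fallen tetraspanins was 2.

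Some genes had probe sets that moved in opposite directions. Of 9010 named genes with several probe sets, 5806 had a call on at least 1, 1449 had every probe set called in 1 direction and 302 had calls in both. Among probe sets with a mean signal above 100 in either group, 127 genes had calls both ways. The widest gap was in tropomyosin 3 (Tpm3), an actin-binding protein whose slow muscle and non-muscle forms come from 1 gene, at 8.43 on the log2 scale. Its probe set 1436958_x_at read 44.4, 36.4 and 42.5 on naive arrays and 1332, 401 and 1575 on severe arrays. Its probe set 1449996_a_at went the other way, from 653, 1109.6 and 523 to 12.9, 14.9 and 37.9. Their changes were 4.08 ± 0.58 and -4.35 ± 0.65, while the brightest Tpm3 probe set changed by 2.01 ± 0.18. Of the 5 Tpm3 probe sets 3 rose and 2 fell, and as a mean of its probe sets the gene changed by -0.05.

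Tropomyosin 1 (Tpm1) also had probe sets called both ways, with a smaller gap of 3.43. Its brightest probe set changed by 0.18 ± 0.20 and did not pass, while 1423721_at rose by 1.53 ± 0.25 and 1447713_at fell by 1.89 ± 0.38. The sarcomere and stress fibre protein Pdlim5 had 7 probe sets, 4 risen and 2 fallen, from -2.75 ± 0.25 to 1.32 ± 0.21. Synaptopodin (Synpo), an actin-bundling protein, had 1 probe set each way, 1427045_at at -1.89 ± 0.16 and 1434089_at at 2.07 ± 0.3. As a mean of probe sets Pdlim5 changed by 0.02 and Synpo by 0.09, so the direction of these genes depends on the probe set read. Pde4dip, a scaffold of muscle and centrosome, fell on 3 of 4 probe sets and rose on 1, with -1.22 ± 0.16 on the brightest. Mapk14, the p38 kinase, fell on 3 of 6, by 1.31 ± 0.13 on the brightest, and rose on 2 of lower signal. With hybridization control scaling the brightest probe sets of Pde4dip and Mapk14 did not pass. The immunoglobulin heavy chain gene Ighm had 11 probe sets, of which 4 fell and 1 rose, and its brightest read 2173, 2285 and 2037 on naive and 244, 383 and 436 on severe arrays. The exons these probe sets target were not looked up.

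**Figure D5:**
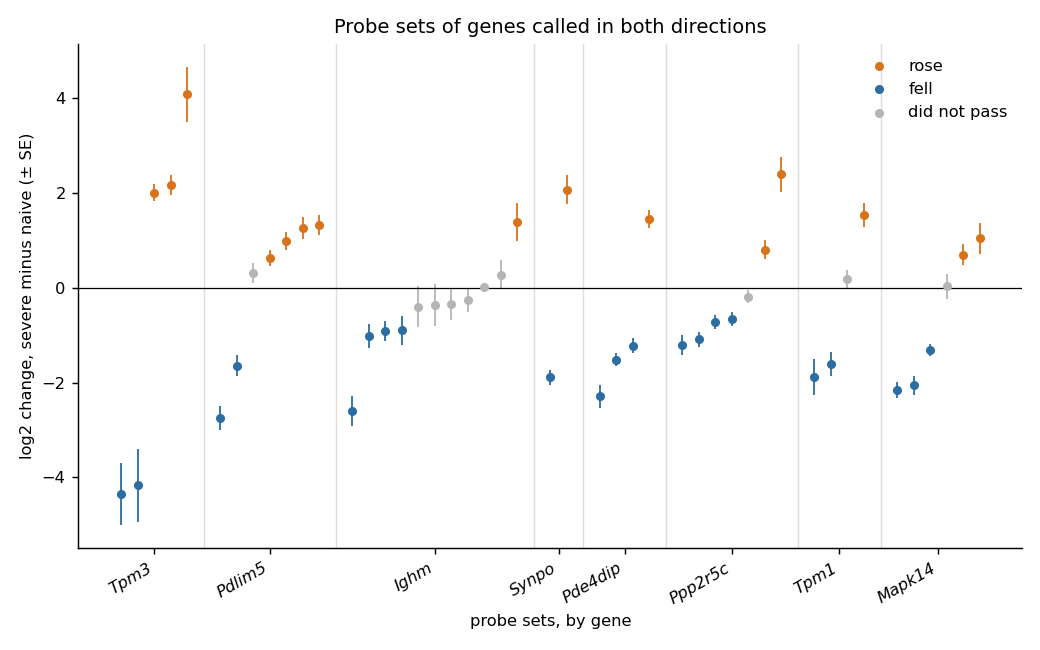
Log2 change, severe minus naive, with limma's standard error, for each probe set of 8 genes whose probe sets were called in both directions, sorted by change within a gene. Orange points rose, blue points fell and grey points did not pass, and Tpm3 spans from -4.35 to 4.08.

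Severe joints were last compared with joints of immunized mice that had moderate or no swelling. They were not compared with mildly swollen joints. These comparisons share the severe arrays with the one against naive, so they are not independent of it. Against moderate swelling 1 probe set of 45037 was higher (0.00222%) and 0 were lower (0.0%) by limma's adjusted p, with 3218 at an unadjusted p under 0.05. Many of these 3218 would pass that unadjusted threshold with no difference between the groups. Without severe replicate 2, 13 were higher and 9 lower by the adjusted p. A p that misses the threshold does not show that severe and moderate joints are alike. The 6 named genes with the lowest p between severe and moderate joints included Grap2, Tob2 and Zfhx4, with changes of 0.69 ± 0.15, -0.64 ± 0.11 and -0.75 ± 0.15 that did not pass. Grap2 read 2, 3.2 and 1.7 on moderate and 12.6, 11.1 and 17 on severe arrays, near the bottom of the signal range. Lhx8 and C8a, also among the 6, were near the bottom too. Against joints without swelling 4588 named genes were higher (25.2%) and 3039 lower (16.7%). There, of the 17 myeloid kinases and adaptors 16 were higher, of the 17 elastic fibre genes 15, and of the 20 branched-chain amino acid enzymes 19 were lower. Hybridization control scaling, which removed most branched-chain falls against naive, was not fitted for this comparison. For Lcn2 the change was 2.22 ± 0.49 against joints without swelling (1.5 without no swelling replicate 3) and 4.8 ± 0.49 against naive. For Il6, a cytokine that drives the acute-phase response, it was 1.58 ± 0.34 and 4.38 ± 0.34.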

How the data were processed

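Total RNA of knee synovium carried a biotin label, and each sample was read on its own Affymetrix array, as the labels' protocols give it. The deposited table holds a linear signal intensity per probe set, which the authors made with MAS5, according to the submitters' processing notes. Its version and target scaling are not given, and no detection calls were used. Signals were not rescaled, and log2(signal + 16) was computed from the deposited values.

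All 15 arrays in 5 groups of 3 entered 1 limma fit of group means (limma 3.58.1 in R 4.3.3), with an intensity trend, 10 residual and 5.11 prior degrees of freedom. No filter on low signals was used. P-values were two-sided and adjusted by Benjamini-Hochberg over 45037 probe sets, with calls at an adjusted p under 0.05. With 3 arrays on each side, the smallest p an exact permutation test allows is 0.1. The number of arrays limits the precision.

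Gene names came from GEO's annotation of the platform, parts of which may be outdated. It gave 1 symbol for 34945 probe sets, several for 932 and none for 9160. Gene identifiers of 34741 were found in RefSeq, where 0 had another symbol. Probe sets with several symbols were left unnamed, and a gene stood for its brightest probe set over the 15 arrays.

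Gene lists were described by counts and medians, with no test of a list. The rule for named genes took the 30 largest rises and 30 largest falls among called genes whose arrays did not overlap. In each list it took up to 4 members with the lowest p and up to 3 called members that moved against most. It also took the whole tissue panel, the 8 genes with the widest gap between bright probe sets called in opposite directions, 6 probe sets with no gene, and the 6 genes with the lowest p between severe and moderate joints, where no gene passed by its brightest probe set. The comparison, lists and rule were chosen with earlier results of these data known.

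Alternatives were pseudocounts of 1 and 64, a filter at the 40th percentile on 3 arrays, quantile normalization, aligned medians, hybridization control scaling, probe sets averaged within a gene, no trend, only the groups compared, a replicate block and leaving out each array. Severe against naive joints was the only comparison fitted with a pseudocount of 64, aligned medians or hybridization control scaling. The same holds for averaged probe sets, no trend and only the groups compared. The fit was tested on simulated data.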

Additional observations from a re-analysis of the deposited data

Results flagged for a closer look

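Severe and moderate joints differed from each other on 1 probe set, 1423886_at of Lamc1, the gamma chain of most laminins, which was picked out after its values were seen. It read 148, 149.5 and 138 on naive arrays, 67.3, 60.4 and 53.6 on moderate arrays and 235, 148 and 176 on severe arrays. The difference between severe and moderate joints was 1.39 ± 0.17 on the log2 scale (limma, adjusted p = 0.0351), so that severe joints were 0.31 ± 0.17 and moderate joints -1.08 from naive. Of 10 alternatives that gave this probe set a value, 5 called it, with adjusted p from 0.0147 to 0.278. The other Lamc1 probe set differed by -0.07 between severe and moderate joints.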

How the results depend on the processing

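Between severe and naive joints, the counts of rises and falls stayed within 1.5 times of 8999 and 6887 under the alternatives, except that 1504 probe sets fell with hybridization control scaling. Without 1 array, rises ranged from 7585 to 8707 and falls from 5833 to 6598. Whether the replicate numbers pair the samples cannot be told from 3 arrays per group. Same-numbered severe and naive arrays correlated at 0.0203, 0.1049 and 0.0286 in their deviations from group means. Severe replicates 1 and 2 correlated best with the same-numbered naive array, and severe replicate 3 with naive replicate 1, at 0.0601. With the replicate block 8656 rose and 6593 fell. Between severe and moderate joints the counts without 1 array ranged from 0 to 13 higher and from 0 to 9 lower, with both highest counts without severe replicate 2. Against joints without swelling, counts stayed within 1.5 times of 8975 higher and 6295 lower under the alternatives fitted there. Hybridization control scaling and aligned medians were not among those alternatives. As a mean of probe sets, Gsdme changed by 0.06, Mbp by 0.07, Pdlim5 by 0.02, Synpo by 0.09, Tpm1 by -0.45 and Tpm3 by -0.05, each opposite in sign to the brightest probe set. Of 216 called genes checked, 42 lost the call under some alternative, 35 with hybridization control scaling and 9 as a mean of probe sets. Some lost it under both, and the cause was not tested.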

Other observations

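Some of the strongest signals came from probe sets to which the annotation used here gives no gene. Of 9160 such probe sets, 1279 rose and 656 fell. Both shares were smaller than among all probe sets, where 20.0% rose and 15.3% fell. Probe set 1449254_at read 12.8, 29.8 and 20.8 on naive arrays and 2537, 1820 and 2311 on severe arrays, a change of 5.93 ± 0.42. The next highest were 1449632_s_at at 3.85 and 1416296_at at 3.83. The lowest was 1416835_s_at at -3.5, then 1458081_at at -3.46 and 1431199_at at -3.24.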
